A study of Saccharomyces cerevisiae with 12 samples.

Results

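The genes described here encode the proteins of the large subunit of the budding yeast cytoplasmic ribosome. They were chosen as nuclear coding genes of the RefSeq R64 table whose symbol is RPL and a number, or RPP and 0, 1 or 2, with an optional A or B. The rule took 82 of 6002 nuclear coding genes, on 14 chromosomes. Among them RPP1 shares only its symbol with the group, since it encodes a subunit of the RNA-processing enzymes RNase P and RNase MRP. Without it, 81 genes remain, of which 70 form 35 pairs of A and B copies and 11 are single copies. Binding of Scc2, a subunit of the complex that loads cohesin onto chromosomes, had been mapped by Myc chromatin immunoprecipitation and sequencing in W303 MATa cells. All cultures carried SCC2-13MYC::NAT, MED14-AID*-6FLAG::HYG and ura3-1::ADH1-OsTIR1, so that every culture compared had the degron on Med14, the scaffold subunit of Mediator, and the plant F-box protein OsTIR1 under the ADH1 promoter. Auxin at 1 mM marks the degron protein for destruction in the 3 cultures with auxin, and 3 cultures had none. The labels describe an arrest in alpha-factor, a release into nocodazole and the addition of fission yeast cells with Mis4-Myc for calibration. The protocol text mentions auxin for every sample, and the groups rest on the titles and treatment labels. The labels name no culture without the degron, so auxin itself and the loss of Med14 cannot be told apart.

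Ribosomal protein genes are among the most heavily transcribed genes of growing yeast, and RNA polymerase II works on them at high density. Most of their promoters are bound by the general regulatory factor Rap1 together with Fhl1, Ifh1 and other factors, and a minority by Abf1. Mediator bridges such activators and the polymerase at the promoter, and Scc2 is known to be found at strongly transcribed genes. Most of the A and B copies date from an ancient duplication of the genome, and many pairs encode identical or nearly identical proteins.

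Each of 6 immunoprecipitates has a list of narrow peaks. The lists held 964, 1324 and 1569 peaks with auxin and 2115, 2111 and 1502 without, and the median fold enrichment over the peaks of a list, as the authors' peak caller gave it, was 3.93, 2.83 and 2.57 with auxin against 1.70, 1.67 and 2.54 without. The first list with auxin was thus the shortest and had the highest median fold. The depth behind the lists is unknown. The values say where peaks were called and how much of a window they covered, and a window without a peak may still hold Scc2. Whether fewer or wider peaks reflect depth, enrichment or binding was not tested.

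With auxin few large subunit genes had a Scc2 peak in the coding span, meaning the annotated span from start to stop with any introns, and without auxin nearly all did. A peak overlapped the span of 5, 16 and 23 of the 82 genes in the lists with auxin, against 80, 78 and 75 in the lists without. The means were 17.9 ± 11.1% with auxin and 94.7 ± 3.07% without (SD, n = 3 each), and the lists of the 2 groups did not overlap. A span peak in at least 2 lists without auxin was found at 78 genes, or 95.1%, against 22.4% of all coding genes. The exact two-sided permutation test over lists gave p = 0.1, below which a comparison of 3 with 3 cannot go, and 0.188 after Benjamini-Hochberg adjustment over 15 such tests. No test here could pass a threshold of 0.05.

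The covered part of the span differed in the same way. On average over the genes, peaks covered 2.89%, 9.70% and 16.2% of the span with auxin, against 77.2%, 76.1% and 61.8% without, which is 9.61 ± 6.68% with auxin and 71.7 ± 8.59% without (SD, n = 3 each). The exact permutation p was 0.1, adjusted 0.188. For 73 of 82 genes the coverage was lower in every list with auxin than in every list without, whereas 9.98% of all coding genes met that rule. The reverse order held for 0 of 82 genes, against 1.62% of all coding genes.

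**Figure D1:**
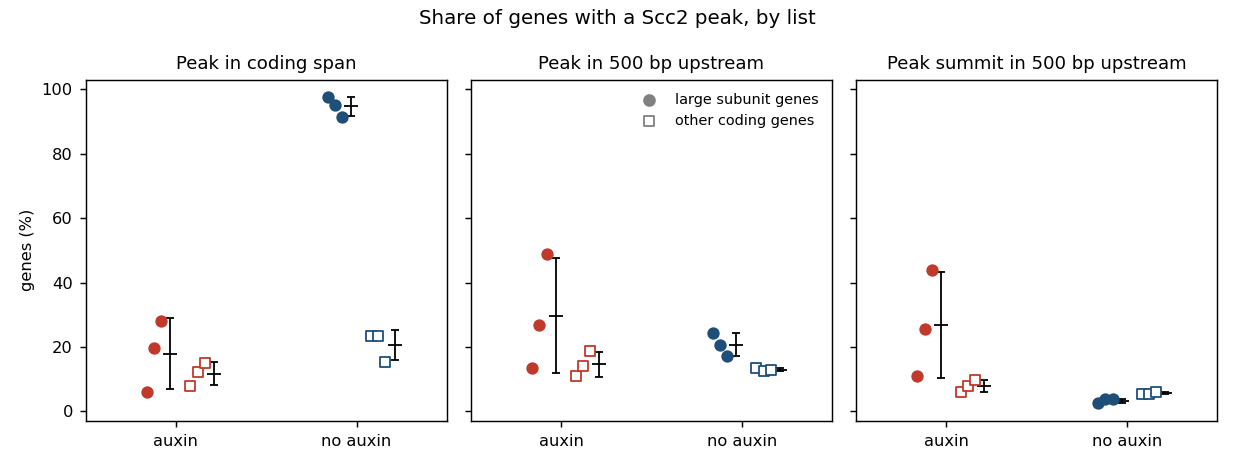
Share of genes (percent) with a peak in the coding span, with a peak in the 500 bp upstream and with a peak summit there, for 82 large subunit genes (filled circles) and 5864 other coding genes (open squares). Each symbol is 1 of 3 lists of a group, and bars give mean and SD. For the coding span of large subunit genes the lists with auxin reached at most 28.0%, while those without held at least 91.5%.

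Other coding genes had smaller differences. Of 5864 coding genes that encode no cytoplasmic ribosomal protein by symbol, 11.7 ± 3.50% had a peak in the span with auxin and 20.6 ± 4.64% without (SD, n = 3 each). The excess of the large subunit genes over these was -1.90, 7.27 and 13.1 percentage points in the lists with auxin and 74.3, 71.7 and 76.2 in those without. The difference between groups in that excess was -67.9 percentage points (exact permutation p = 0.1, adjusted 0.188), and no list of a group overlapped the other group. With auxin the genes thus stood between slightly below and 13.1 points above other genes, and without auxin they stood at least 71.7 points above.

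Peaks without auxin lay toward the end of the gene and ran past it. In the first 5% of the span, 1.29 ± 1.50% of bases were covered with auxin and 15.6 ± 2.98% without (SD, n = 3 each). In the 5% that begins at 70% of the span the values were 19.7 ± 10.9% with auxin and 94.8 ± 3.52% without. In the first 50 bp past the end they were 2.29 ± 1.84% with auxin and 65.7 ± 8.05% without. The coverage before the midpoint of the span minus that after it was -7.17 ± 5.45 points with auxin and -36.2 ± 5.66 points without (SD, n = 3 each). The exact permutation p was 0.1, adjusted 0.188. The size of this difference is limited by how much of the span is covered, on average 9.61% with auxin and 71.7% without. The test thus cannot tell whether the lean toward the end differed between the groups apart from the coverage. The summits that did lie in a span had similar median positions in most lists, at 45.9%, 71.3% and 75.3% of the span with auxin and at 73.9%, 77.5% and 77.1% without. Only 4 summits make up the first of these values.

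**Figure D2:**
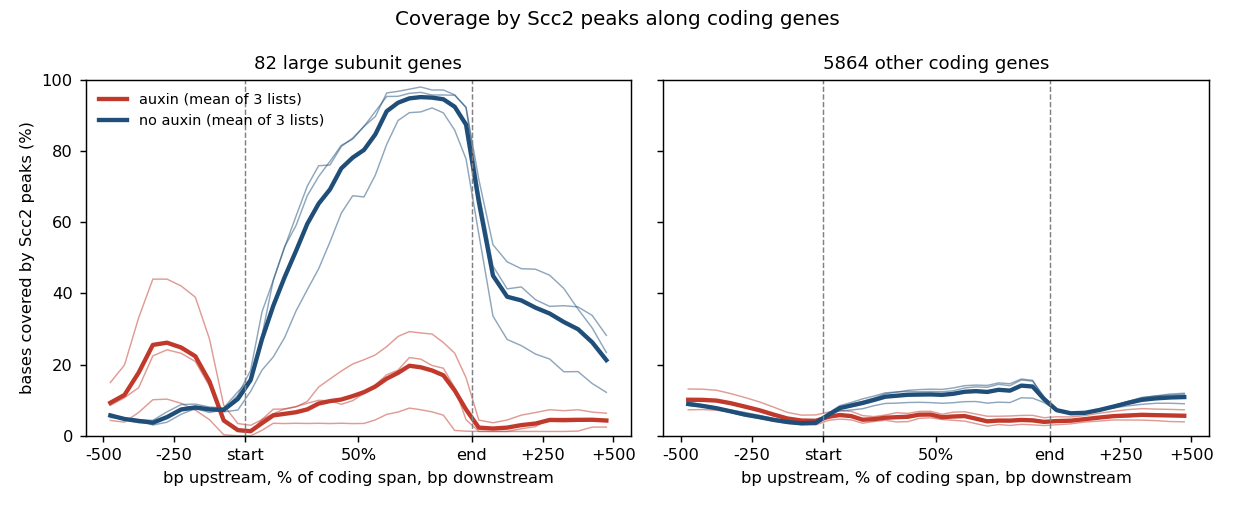
Share of bases covered by Scc2 peaks (percent) over the 500 bp upstream, the coding span scaled to its length and the 500 bp downstream, for 82 large subunit genes (left) and 5864 other coding genes (right). Thin lines are lists and thick lines are means of 3 lists. In the large subunit genes the mean with auxin had its highest bin, at 26.1%, upstream of the start, and the mean without auxin reached 95.1% in the bin that begins at 75% of the span.

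A peak in the span in all 3 lists without auxin and in none with auxin, called lost here, was found at 51 of 82 genes, or 62.2%, against 5.56% of all coding genes. Another 24 genes had a span peak in all 3 lists without auxin and in 1 or more with auxin. These were 9 genes in 1 list, 10 in 2 lists and 5 in all 3 lists with auxin. The remaining 7 genes had a span peak in 2 lists without auxin (3 genes), in 1 (2 genes) or in no list at all (2 genes), and none of them had one with auxin. No gene had a span peak in all 3 lists with auxin and none without, a pattern held by 0.716% of all coding genes.

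Among the lost genes ranked by the authors' fold without auxin, RPL34B stood first, with a median fold of 3.05 over the lists without auxin. It lies on chromosome IX from 256226 to 257063 on the minus strand in sacCer3, the build of all positions given here. Its span was uncovered in each list with auxin and covered to 75.7%, 74.2% and 44.0% without. In the first and the second list without auxin the peak over it had its summit more than 500 bp past the end of the gene, so the fold there is not that of a peak centred on RPL34B. RPL30 (chromosome VII, 439091 to 439638, plus strand), whose product binds its own transcript and represses its splicing, was likewise uncovered with auxin and had 84.9%, 91.4% and 63.9% without. RPL25 (chromosome XV, 80348 to 81190, plus strand) encodes the protein at the exit of the peptide tunnel that contacts the signal recognition particle. Its coverage was 0 in each list with auxin and 87.0%, 89.1% and 65.7% without.

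RPL19A (chromosome II, 414186 to 415261, minus strand) and RPL23B (chromosome V, 396769 to 397653, plus strand) encode proteins of bridges between the subunits. RPL19A had no span peak with auxin and coverages of 87.1%, 86.6% and 65.1% without. RPL23B had none with auxin and 79.1%, 80.6% and 77.9% without. RPL42B (chromosome VIII, 381990 to 382751, minus strand), for a protein near the exit site of the ribosome where cycloheximide acts, had 46.6%, 49.2% and 47.9% without auxin. RPL42B lies 263 bp from the snoRNA gene SNR32, and RPL31A (chromosome IV, 322226 to 322988, plus strand), with 47.7%, 45.9% and 31.3% without auxin, lies 229 bp from SNR63. At RPL31A the summit lay past the end of the gene in the third list without auxin.

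RPL32 (chromosome II, 45978 to 46370, plus strand) had no span peak with auxin, while peaks spanned all of it in the 3 lists without. Its peaks without auxin also reached over 51.2%, 52.2% and 41.6% of the 500 bp upstream, with no summit there. RPL29 (chromosome VI, 223258 to 223437, minus strand) had the same pattern, with no peak in either window with auxin, and without auxin 100% of the span covered and 62.2%, 55.8% and 48.6% of its upstream window. Another coding gene overlaps the upstream window of RPL29, and no list had a summit in that window. Both have short spans, of 393 and 180 bp, against a median of 805 bp for the group.

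**Figure D3:**
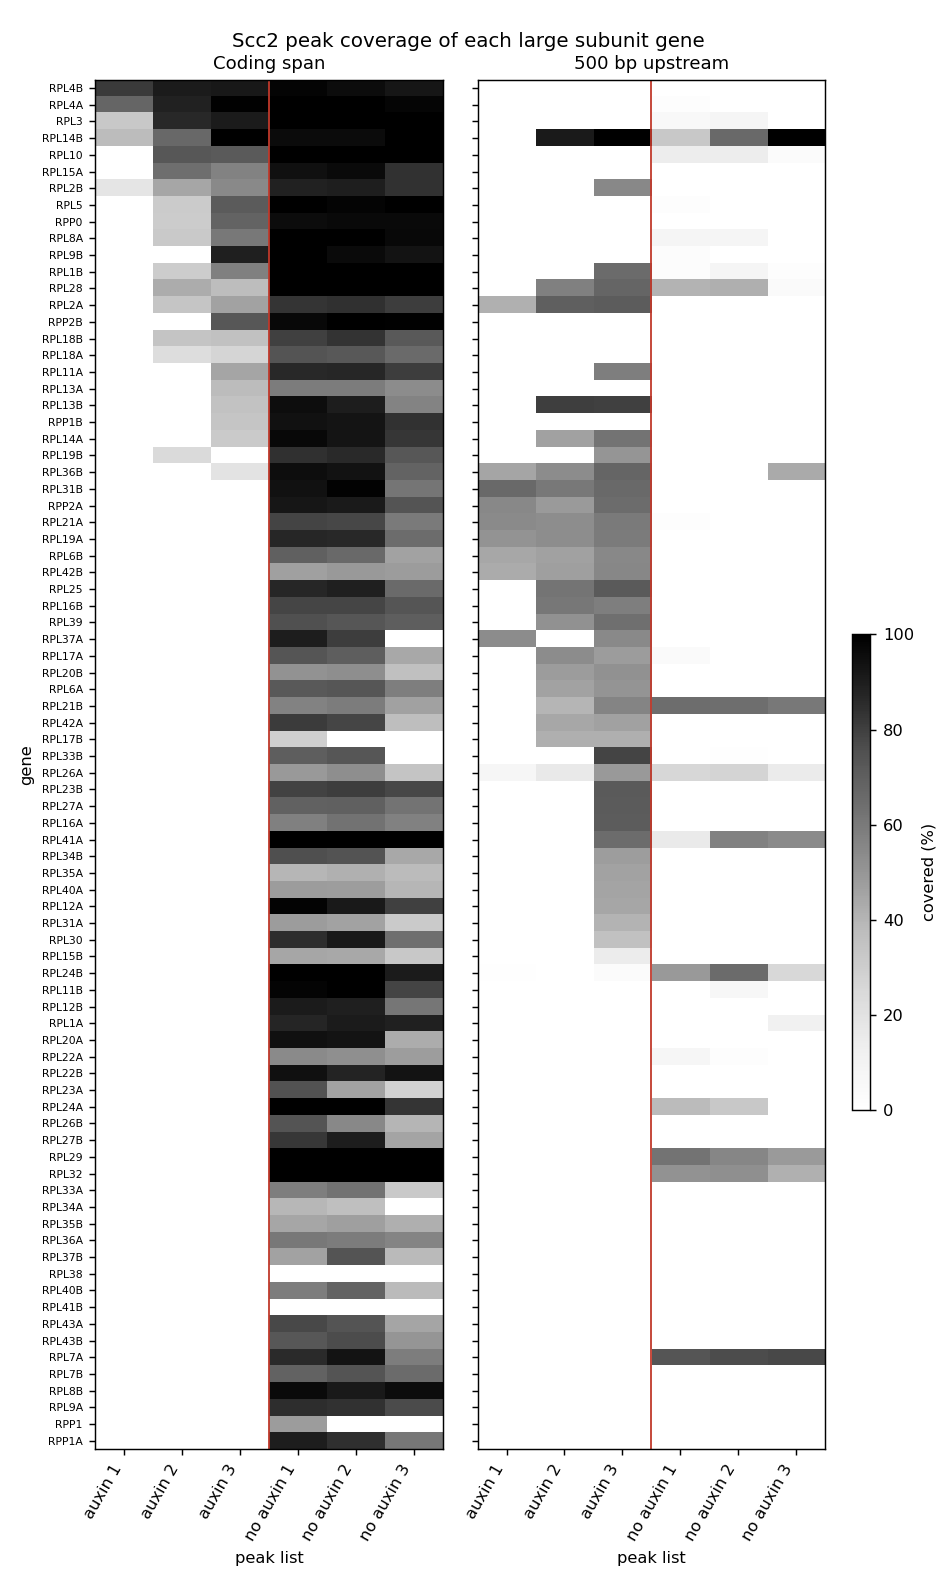
Share of the coding span (left) and of the 500 bp upstream (right) covered by Scc2 peaks in each of 6 lists, from 0 (white) to 100% (black), for the 82 genes, sorted by mean coverage of the span with auxin. The red line divides lists with auxin from lists without. Most spans are white with auxin and dark without it, and a block of upstream windows is grey only with auxin.

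The span peaks found with auxin lay at a small set of genes. At least 2 lists with auxin held one at 15 of 82 genes, or 18.3%, against 11.3% of all coding genes, and all 6 lists held one at 5, RPL3, RPL4A, RPL4B, RPL2B and RPL14B, or 6.10% against 5.53% of all coding genes. The second share is near that of coding genes at large. Without the first list with auxin, a span peak in all remaining lists was found at 15 genes. The RPL2 and RPL3 proteins bind ribosomal RNA near the peptidyl transferase centre, and RPL4 lines the peptide tunnel.

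RPL4B (chromosome IV, 471853 to 472941, plus strand) had the highest mean coverage with auxin (87.8 ± 5.64%, SD, n = 3), at 81.3%, 90.5% and 91.5%, against 98.1%, 95.6% and 92.3% without. RPL4A (chromosome II, 300166 to 301254, plus strand) had 67.2%, 88.6% and 99.5% with auxin and 100%, 99.6% and 97.8% without. The groups overlapped at RPL4A, and at RPL4B the highest list with auxin lay just below the lowest without. The summit at RPL4A lay 277, 190 and 261 bp from the start with auxin and 636, 577 and 677 bp without, so that it stood nearer the start in every list with auxin. At RPL4B the summit lay 233, 803 and 259 bp from the start with auxin and 743, 864 and 696 bp without, and the groups overlapped.

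RPL3 (chromosome XV, 444686 to 445849, plus strand) was covered to 32.2%, 86.6% and 90.3% with auxin and to 100% in all 3 lists without. RPL2B (chromosome IX, 316768 to 317932, plus strand) had 18.6%, 44.5% and 54.5% with auxin and 88.6%, 89.8% and 83.8% without. At both genes less of the span was covered in every list with auxin than in any list without. RPL14B (chromosome VIII, 104277 to 105091, plus strand) lies 495 bp from a centromere. Its span was covered to 37.8%, 66.6% and 100% with auxin and to 96.0%, 96.1% and 100% without. In all 6 lists a summit lay past its end, 1237, 1191 and 1192 bp from its start with auxin and 1176, 1169 and 1193 bp without, and how much of the coverage belongs to the centromere was not tested.

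RPL10, RPL15A and RPL5 had a span peak in 2 lists with auxin. RPL10 (chromosome XII, 282927 to 283592, plus strand), whose product joins the subunit late and is needed for its joining with the small subunit, was uncovered in the first list with auxin and had 72.8% and 71.6% in the others, against 100% in all lists without. RPL15A (chromosome XII, 201976 to 202590, minus strand) had 0, 64.2% and 56.9% with auxin and 94.3%, 96.1% and 83.9% without. RPL5 (chromosome XVI, 303121 to 304014, plus strand) encodes a partner of the smallest ribosomal RNA of the large subunit, and had 0, 30.9% and 71.5% with auxin and 100%, 98.3% and 99.9% without. In all 3 the first list with auxin held no peak, and that list also held the fewest peaks in all.

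In the 500 bp upstream of the start the groups were not set apart as they were in the span. The share of genes with any peak in that window was 13.4%, 26.8% and 48.8% with auxin and 24.4%, 20.7% and 17.1% without, so that the groups overlapped. The means were 29.7 ± 17.9% with auxin and 20.7 ± 3.66% without (SD, n = 3 each; exact permutation p = 0.6, adjusted 0.643). Without the third list with auxin the difference between groups was -0.61 percentage points in place of 8.94. The span share minus the upstream share was -7.32, -7.32 and -20.7 points with auxin, against 73.2, 74.4 and 74.4 without (exact permutation p = 0.1, adjusted 0.188). Upstream coverage was higher in every list with auxin at 8 genes (RPL2A, RPL6B, RPL19A, RPL21A, RPL31B, RPL36B, RPL42B and RPP2A), against 4.38% of all coding genes, and lower in every list with auxin at 7, against 2.87%. A single gene, RPL26A, had an upstream peak in all 6 lists, against 5.63% of all coding genes. RPL26A lies 632 bp from the tRNA gene TRR4, and no list had a summit in its upstream window. Upstream peaks were the more frequent kind in each list with auxin, and span peaks in each list without.

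Where the peak had its summit set the groups apart. A summit lay in the upstream window of 9, 21 and 36 genes with auxin and of 2, 3 and 3 genes without, which is 26.8 ± 16.5% with auxin and 3.25 ± 0.704% without (SD, n = 3 each). The exact permutation p was 0.1, adjusted 0.188. The summit measure was added after seeing the data. The number depended on the list, from 9 genes in the shortest list with auxin to 36 in the longest, and without the third list with auxin the difference between groups was 15.0 percentage points in place of 23.6. With lists of equal length the shares were 21.5% with auxin and 1.22% without. Among other coding genes the shares were 7.74 ± 1.85% with auxin and 5.56 ± 0.336% without, and the excess of large subunit genes over them differed between groups by 21.4 percentage points (exact permutation p = 0.1, adjusted 0.188).

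The upstream summits with auxin stood at similar distances from the start. Over the 3 lists there were 66 of them, with a median of -254 bp, and 46 of the 66, or 69.7%, lay 200 to 300 bp upstream, a band chosen after their positions were seen. The median was -252, -250 and -256 bp in the single lists. At the 21 genes with such a summit in at least 2 lists with auxin, the summits of different lists lay 1 to 67 bp apart, with a median of 21 bp. These peaks were narrow, with median widths of 254, 265 and 294 bp, against 699, 786 and 516 bp for peaks with a summit in the span in the lists without auxin. Span peaks in the lists with auxin had median widths of 554, 323 and 370 bp, nearer to those of the upstream peaks in the second and the third list. Their median fold, as the authors' caller gave it, was 3.11, 2.78 and 2.63, and that of span peaks in the same lists was 3.54, 2.48 and 2.20.

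**Figure D4:**
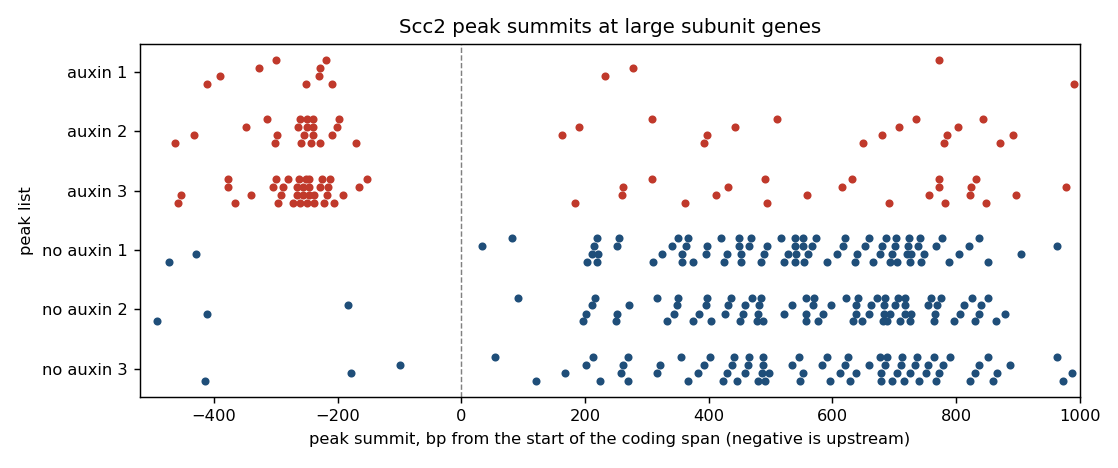
Position of each Scc2 peak summit at the large subunit genes, in bp from the start of the coding span, with 1 row for each list and summits beyond 1000 bp not drawn. Summits cluster near -254 bp in the rows with auxin, and lie mostly within the span in the rows without auxin.

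Of the 82 genes, 20 had an upstream summit in 2 or 3 lists with auxin and in none without, or 24.4%, against 2.92% of all coding genes. The number was 8 without the second list with auxin and 7 without the third. With any overlap in place of a summit, 6 genes had an upstream peak in all 3 lists with auxin and none without (RPL19A, RPL2A, RPL31B, RPL42B, RPL6B and RPP2A), against 2.23% of all coding genes. The reverse, an upstream peak in all 3 lists without auxin and none with auxin, held for 5 genes (RPL3, RPL7A, RPL10, RPL29 and RPL32), against 2% of all coding genes, and for 8 genes without the third list without auxin. Of those 5, RPL7A alone had its summit in the window without auxin.

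RPL31B (chromosome XII, 931065 to 931755, minus strand), for a protein at the tunnel exit, had 66.2%, 60.4% and 66.2% of its upstream window covered with auxin and none without. Its span showed the reverse, with none covered in each list with auxin and 93.8%, 98.8% and 61.4% without. Another coding gene overlaps this window. RPP2A (chromosome XV, 254297 to 254617, plus strand) encodes a protein of the stalk that recruits elongation factors. Peaks covered 54.8%, 48.6% and 65.2% of its upstream window with auxin and none without, while its span had none with auxin and 92.5%, 90.7% and 74.1% without. At both genes each window was occupied in one group of lists and empty in the other.

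The same arrangement was seen at RPL21A, RPL19A, RPL6B and RPL42B. RPL21A (chromosome II, 606270 to 607140, plus strand) had 54.0%, 53.0% and 59.8% of the upstream window covered with auxin, against 1.40%, 0 and 0 without, and summits at -228, -202 and -222 bp. RPL6B (chromosome XII, 1028854 to 1029768, plus strand) had 44.4%, 46.4% and 54.8% with auxin and none without. Its 3 summits lay within 1 bp of each other, at -300, -301 and -300 bp. The windows of RPL19A and RPL42B were covered to 50.8%, 53.0% and 59.4% and to 43.0%, 47.2% and 55.2% with auxin, and to none without. RPL2A (chromosome VI, 220507 to 221418, minus strand) had an upstream summit in each list with auxin too, but also a span peak in 2 of them, and its window holds the noncoding RNA gene RUF23.

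Span and upstream peaks with auxin were also counted together. Of the 15 genes with a span peak in at least 2 lists with auxin, 3 also had an upstream peak in at least 2 lists, RPL2A, RPL14B and RPL28. Another 21 genes had an upstream peak only, 12 had a span peak only and 46 had neither in at least 2 lists. In none of the lists with auxin did 28 genes have a peak in either window, among them RPL32, RPL29, RPL7A and RPL7B. Of the 21 genes with an upstream summit in at least 2 lists with auxin, 16 had no span peak in any list with auxin, as did 58 of all 82 genes, or 70.7%. How many of all coding genes held these combinations was not counted. Only 11.3% of all coding genes had a span peak in at least 2 lists with auxin, so such an absence was common among them too. Whether span and upstream peaks avoid each other was not tested. At 17 of 82 genes, or 20.7%, a span peak in at least 2 lists without auxin was absent with auxin while an upstream peak was present in at least 2 lists with auxin, against 2.2% of all coding genes. At 3 of the 17 the upstream window held peaks in all 3 lists without auxin too. Its mean coverage was 1.27% with auxin and 46.6% without at RPL24B, 32.1% with auxin and 63.2% without at RPL21B, and 24.1% with auxin and 22.7% without at RPL26A.

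Most upstream peaks without auxin had their summit outside the window, since 20, 17 and 14 genes had a peak there and 2, 3 and 3 a summit. Of the 82 genes, 4 had a summit in the window in any list without auxin, RPL7A, RPL14B, RPL36B and RPL41A. At RPL7A (chromosome VII, 364335 to 365996, minus strand) the window was uncovered with auxin and covered to 73.6%, 76.2% and 77.6% without, with summits at -430, -411 and -414 bp. That window holds the snoRNA gene SNR39B (366374 to 366469), and to which gene the peak belongs was not tested. The upstream windows of 24 of the 82 genes overlap another coding gene, and among the other 58 genes the summit share was 31.0% with auxin and 1.72% without.

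The A and B copies of a protein were compared within 35 pairs. In 2 or more lists with auxin, a span peak was found at both copies in 3 pairs, RPL2, RPL4 and RPL18. The A copy alone had one in RPL8 and RPL15, the B copy alone in RPL1 and RPL14, and neither copy in 28 pairs. Without auxin both copies had one in 33 pairs, and in RPL17 and RPL41 the A copy alone did. With so few copies called with auxin and so many without, few pairs could differ in these calls. The mean difference in span coverage, A minus B, was -2.01, -1.42 and -5.29 percentage points with auxin and 1.03, -0.50 and -2.41 without (exact permutation p = 0.3, adjusted 0.45). The values of the groups overlapped. Reads from stretches that both copies share cannot be assigned to one of them, and how the authors treated them is not given in the sources used here.

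Single pairs did differ. RPL15B (chromosome XIII, 509734 to 510348, minus strand) had no span peak with auxin and 40.5 ± 6.82% of its span covered without, where RPL15A had 91.4 ± 6.59% (SD, n = 3 each). RPL8B (chromosome XII, 47859 to 48629, minus strand) had no span peak with auxin and 94.3 ± 2.67% covered without. Its copy RPL8A (chromosome VIII, 35255 to 36025, minus strand) had 0, 31.8% and 60.4% with auxin and 100%, 100% and 97.1% without. RPL1A and RPL1B, which encode the protein of the mobile stalk near the exit site, divided in the same manner. RPL1A had no span peak with auxin and 88.8 ± 1.61% without, while RPL1B had 0, 30.6% and 57.5% with auxin and full coverage without. In RPL9 and RPP2 the third list with auxin held a peak at the B copy alone, at 89.4% of RPL9B and 73.0% of RPP2B. The peak over RPL9B had its summit 403 bp past the end of the gene, and that over RPP2B had it in the span.

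Without auxin the pairs with the largest differences in span coverage were RPL41, RPL17, RPL15, RPL31, RPL22 and RPL34. RPL22B had 91.7 ± 3.64% and RPL22A 51.3 ± 3.56% without auxin, and RPL34B had 64.6 ± 17.9% against 25.2 ± 21.9% for RPL34A (SD, n = 3 each). RPL31B had 84.7 ± 20.3% and RPL31A 41.6 ± 8.98%. In RPL17, for a protein that lines the tunnel, the A copy had 73.6%, 70.3% and 43.9% and the B copy 29.1%, 0 and 0 without auxin. RPL17B (chromosome X, 90786 to 91657, plus strand) had an upstream peak with its summit at -464 and -458 bp in 2 lists with auxin. Its upstream window thus had peaks with auxin although its span had one in a single list without.

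**Figure D5:**
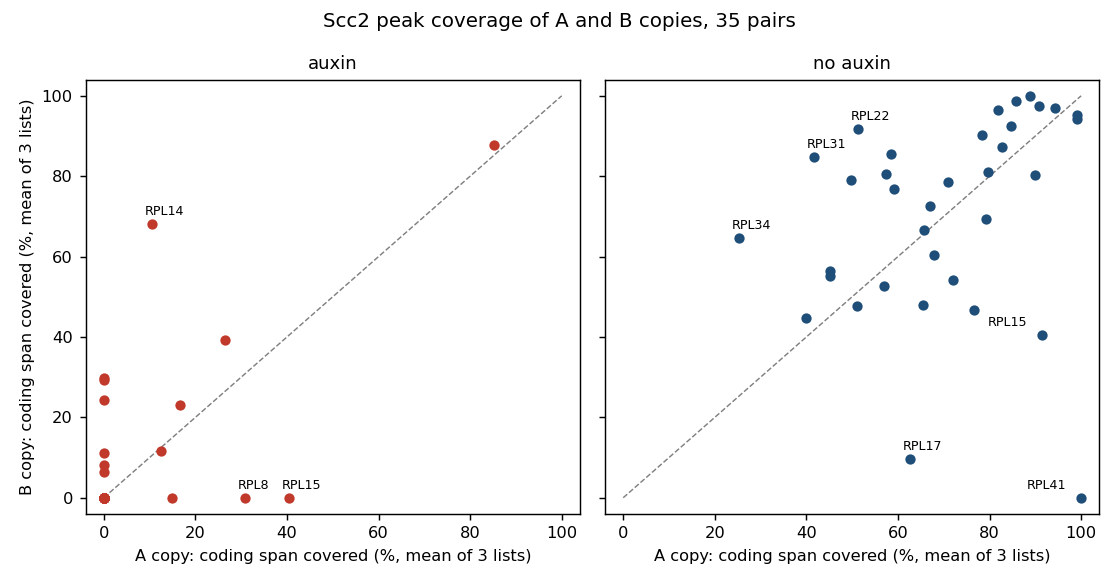
Mean share of the coding span covered by Scc2 peaks (percent, 3 lists) in the A copy (horizontal) and the B copy (vertical) of 35 pairs, with auxin (left) and without (right). The dashed line marks equal coverage, and pairs more than 30 points apart are named. With auxin most pairs lie at 0 in both copies, and without auxin most lie in the upper right, with RPL41 and RPL17 near the horizontal axis.

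Upstream peaks with auxin were also found at both copies, at 1 copy or at neither. Counting 2 or more lists, both copies had one in 5 pairs, RPL6, RPL14, RPL17, RPL21 and RPL42. The A copy alone had one in 5 pairs and the B copy alone in 6, and 19 pairs had none. The mean difference in upstream coverage, A minus B, was -0.81 ± 2.90 points with auxin and -0.54 ± 1.41 without (SD, n = 3 each, exact permutation p = 1). Among genes with no other coding gene upstream it was 9.36 points with auxin and -0.09 without, a difference of 9.45 (exact permutation p = 0.1), and with windows of 1000 bp it was -2.11 with auxin and 2.62 without, a difference of -4.74 (exact permutation p = 0.1). The direction thus depended on the genes and the window taken. RPL19 and RPL31 are examples of the divided kind, with an upstream peak in all 3 lists with auxin at RPL19A and at RPL31B, and in 1 list at RPL19B and at RPL31A.

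No peak was called in the span of RPL38 or RPL41B in any of the 6 lists. RPL38 (chromosome XII, 781143 to 781379, minus strand) is a single copy with a span of 237 bp, and its upstream window was empty in each list too. RPL41A and RPL41B encode the smallest protein of the ribosome, with spans of 78 bp. The span of RPL41A (chromosome IV, 130407 to 130484, minus strand) was uncovered with auxin and covered to 100% in the lists without. Its median fold without auxin was 1.59, among the lowest of the group. The summit lay in the span in the first list without auxin, and at -184 and -99 bp in the second and the third. Its upstream window was covered to 0, 0 and 65.2% with auxin, with a summit at -152 bp in the third list, and to 15.8%, 57.2% and 54.2% without. Another coding gene overlaps that window. RPL41B (chromosome IV, 221724 to 221801, minus strand) was empty in both windows. In the lists without auxin a summit lay 321, 308 and 316 bp past its end, and no list with auxin had one within 500 bp there. How far the difference between the copies rests on their short spans was not tested. RPP1, the gene that is not ribosomal, had 47.7% of its span covered in the first list without auxin and no peak in either window of any other list.

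Of the 11 single copies, 1, 5 and 5 had a span peak with auxin and 10 in every list without. An upstream peak was found at 0, 3 and 4 of them with auxin and at 6, 5 and 5 without, whereas 11, 19 and 36 of the 70 paired genes had one with auxin and 14, 12 and 9 without. The difference between these classes was not tested. An upstream summit was found at 0, 3 and 4 single copies with auxin and at none without. RPL25, RPL29, RPL30, RPL32 and RPL39 were lost, RPL3 had a span peak in all lists, and RPL5, RPL10, RPL28 and RPP0 had one in 2 lists with auxin. The 5 genes of the stalk, RPP0, RPP1A, RPP1B, RPP2A and RPP2B, had a span peak in 0, 1 and 3 cases with auxin and all had one without. RPP0 (chromosome XII, 805887 to 806825, plus strand), the scaffold of the stalk, had 0, 30.8% and 68.1% of its span covered with auxin and 95.6%, 96.8% and 96.8% without.

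The small subunit genes gave values of similar size. Of 56 genes with an RPS symbol, 2, 8 and 11 had a span peak with auxin and 53, 53 and 49 without. The share in large subunit genes minus that in small subunit genes was 2.53, 5.23 and 8.41 points with auxin and 2.92, 0.48 and 3.96 without (exact permutation p = 0.3, adjusted 0.45). The upstream summit pattern found at 20 large subunit genes was found at 14 of 56 of these, or 25.0%. The coverage along the small subunit genes was highest in the same bins as in the large subunit genes. With auxin it was 25.0 ± 20.1% in the 50 bp that begin 300 bp upstream, against 26.1 ± 16.9% in large subunit genes. Without auxin it was 96.3 ± 3.15% in the bin that begins at 75% of the span, against 95.1 ± 3.68% (SD, n = 3 each). Mitochondrial large subunit genes, with an MRPL symbol, seldom had peaks. Of 34, a span peak was found at 0, 2 and 2 with auxin and at 4, 3 and 2 without, and an upstream summit at 1, 2 and 3 with auxin and at 1, 0 and 1 without.

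Genes that act on the large subunit were counted from fixed lists, beside the span shares of other coding genes, 11.7 ± 3.50% with auxin and 20.6 ± 4.64% without. Among 30 genes for its assembly factors and for chaperones of its proteins, 0, 2 and 1 had a span peak with auxin and 9, 7 and 3 without, or 3.33 ± 3.33% with auxin and 21.1 ± 10.2% without (SD, n = 3 each). Without auxin this is near the share of other coding genes. Those with one in at least 2 lists without auxin were ARX1, NOG1, NOG2, RLP7, SQT1, TIF6 and YTM1. Among 6 genes for regulators of ribosomal protein transcription, RAP1, FHL1, IFH1, SFP1, HMO1 and CRF1, none had a span peak with auxin and 3, 2 and 1 had one without (33.3 ± 16.7%), HMO1 and SFP1 in at least 2 lists. None of the 6 had an upstream peak in any list.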

How the data were processed

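For the 6 Myc immunoprecipitates the authors made a narrow peak list each, as deposited, and the total chromatin samples were not used directly here. Whether total chromatin was the control behind the lists is not known here. Per the submitters' processing notes, Bowtie2 2.4.2 and MACS2 2.1.1.20160309 were used on sacCer3. The sources used here do not give the calling threshold, the control or what was done with reads of several matches. The deposited fold enrichment is the caller's ratio for each peak. The deposited significance is in −log10 p and −log10 q values. The deposited score is 10 times the −log10 q and was not used. Averaged tracks were not used here, so calibration enters no value. Lists served as replicates, and the labels describe a culture for each.

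Positions of genes came from the RefSeq R64 table, whose sequence sacCer3 uses, and strands from systematic names. Centromere positions were entered from general knowledge and are not reported. A peak counted for a window when it overlapped it by 1 base or more. Group means were compared by an exact two-sided permutation test over 20 assignments, with Benjamini-Hochberg adjustment over 15 tests. Python 3.11.15, pandas 2.3.3, NumPy 2.4.6, SciPy 1.17.1 and Matplotlib 3.10.9 were used. The windows and counts were tested on simulated data. The members, lists and tests were chosen with earlier results of these data known. Genes were named by a rule: up to 8 lost genes by median fold, up to 8 with span peaks with auxin by coverage, all without a span peak, up to 6 with upstream but no span peaks with auxin by coverage, and up to 6 pairs per group by difference between copies. RPL2A, RPL7A, RPL29, RPP0 and RPP1 were described after their values were seen. Promoter motifs and introns were not analysed here.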

Additional observations from a re-analysis of the deposited data

How the results depend on the processing

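The alternatives were lists of equal length (964 peaks), a −log10 q of at least 5 or 10, an overlap of 50 bp, the summit in the window, genes 1000 bp or more from small RNA genes and centromeres (68 genes), genes with no other coding gene upstream (58 genes), windows of 250 or 1000 bp, and each list left out. Leaving out RPP1 was added after seeing the data. Of 227 recomputed differences between groups, 217 kept their direction. The 227 include those of the replicate block described below, and the A minus B differences without RPP1. Both equal the main values by construction and could not turn. The span share differed by -81.9 to -70.9 percentage points over all alternatives. The number of lost genes was 37 to 59, and with lists of equal length it was 49, of which 38 were among the 51.

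Directions turned in measures whose groups overlapped. With lists of equal length the large minus small subunit span share differed by -0.83 points and the A minus B span coverage by 0.72. With no other coding gene upstream, A minus B differed by 0.49 points in span and 9.45 in upstream coverage (exact permutation p = 0.1), and away from small RNA genes by 3.37 upstream. With 1000 bp upstream the large minus small subunit upstream share differed by -0.54 points. Leaving out a list each gave -1.56 to 1.31 points for A minus B upstream coverage, -0.61 to 17.1 for the upstream share and -0.26 to 13.6 for the upstream excess over other genes. The upstream excess turned without the third list with auxin.

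Genes with a span peak in all lists numbered 3 with a −log10 q of at least 10, 3 with no other coding gene upstream, and 5 to 15 with a list left out. Upstream peaks in all lists were found at 1 gene, RPL26A, and at 0 with 50 bp overlap, with summits, with 250 bp windows and away from small RNA genes, at 6 with 1000 bp windows and at 1 to 4 with a list left out. Lost upstream peaks numbered 1 by summit, 3 with no other coding gene upstream and 5 to 8 with a list left out. Genes with an upstream summit in at least 2 lists with auxin and none without numbered 7 with 250 bp windows and 7 to 21 with a list left out, with 7 without the third list with auxin and 8 without the second.

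For lists of the same replicate number, the Pearson r of deviations of span coverage was -0.0975, 0.0065 and -0.0313. With most spans free of peaks in the lists with auxin, these values cannot show whether lists were made in pairs. The titles give only a number. With a replicate block the span share differed by -76.8 points, with p = 0.25 by exact permutation within pairs, the smallest 3 pairs allow. The contrast of intron-containing and intronless genes and the alternative without near-identical copies were not run, because no protein sequences were used here. Depth, which is unknown, limits every absence of a peak.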

Other observations

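Peaks past the end of the large subunit genes also differed between the groups. The 50 bp that begin 200 bp past the end were covered to 3.44 ± 2.77% with auxin and 36.0 ± 12.1% without (SD, n = 3 each), and a summit lay within 500 bp past the end at 1, 3 and 5 genes with auxin and at 9, 11 and 5 without. Among 5864 other coding genes, the upstream coverage was 7.41 ± 2.22% with auxin and 5.87 ± 0.256% without (SD, n = 3 each), and that of the large subunit genes was 15.8 ± 11.1% with auxin and 6.40 ± 0.661% without. In the large subunit genes the groups overlapped (exact permutation p = 0.4, adjusted 0.545), with 5.63% in the first list with auxin, below all lists without. Without the third list with auxin the difference was 3.55 percentage points in place of 9.44. Of all coding genes, 43, or 0.716%, had a span peak in each list with auxin and in none without, and no large subunit gene was among them.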
